A study of Homo sapiens with 15 samples.

Results

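A set of 10 genes known as targets of the coactivator YAP or of transforming growth factor beta (TGF-beta) was followed in SNB19 cells, a human glioblastoma line, after lentiviral transduction with forms of the zinc finger repressor ZBTB18. The 10 members were taken by symbol out of 18485 genes in the count table: CTGF, CYR61, ANKRD1, AMOTL2, AJUBA, AXL, THBS1, TGFBI, CRIM1 and SMAD7. CTGF and CYR61 are the older names of CCN2 and CCN1. In GENCODE 29 (GRCh38), CTGF lies at chr6:131948176-131951373 on the minus strand, CYR61 at chr1:85580761-85583962 on the plus strand and TGFBI at chr5:136028895-136063818 on the plus strand. The cells, grown in DMEM with fetal bovine serum, carried the vector pCHMWS with full-length ZBTB18 (FL), a mutant of it (FL-mut), the short form SF-Nte, a mutant of the short form (SF-mut), or no insert (the empty vector, EV). Each of the 5 groups had 3 libraries of polyadenylated RNA sequenced as PCR-amplified cDNA with Oxford Nanopore technology. All groups carry the vector, no untransduced cells are included, and the labels name neither the residues changed in the mutants nor the promoter of the vector. The labels also do not say whether replicates were separate cultures, so every p-value measures only the spread between these libraries.

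YAP is held in the cytoplasm by the kinases of the Hippo pathway, and once in the nucleus it acts through the TEAD family of DNA-binding factors. TGF-beta ligands signal through a receptor kinase pair to SMAD proteins, which enter the nucleus and switch on matrix genes and their own inhibitor, SMAD7. The pathways share several targets, CTGF among them, and both are known in glioblastoma for matrix production, adhesion and migration. ZBTB18, also called RP58, represses genes through an E-box of the letters CATCTG.

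Promoter windows from RefSeq (GRCh38.p14), from 250 bases before the transcription start to 50 after it, were found for 8 of the 10 members, with 13 windows in all; CYR61 and CRIM1 had no entry. Both strands were searched for the TEAD motif GGAATG or CATTCC, the ZBTB18 E-box CATCTG or CAGATG, and the SMAD motif CAGACA or TGTCTG. A TEAD match stood in the windows of 6 members, a SMAD match in those of 4 and an E-box match in those of 2 (AJUBA and AXL). Over 35116 windows of the same length, 14.0% held the TEAD motif, 14.7% the E-box and 16.9% the SMAD motif. These are shares of single windows, whereas a member with several windows counted if any of them matched. The member counts are therefore not on the same footing as these shares. The windows of CTGF and TGFBI are shown because these 2 genes had the lowest p-values among the 5 groups, and that of ANKRD1 because it is a classical YAP target whose levels ran differently. Capitals mark the motif matches, and each sequence reads 5′ to 3′ on the gene's own strand.
CTGF promoter, chr6:131951323-131951622, minus strand: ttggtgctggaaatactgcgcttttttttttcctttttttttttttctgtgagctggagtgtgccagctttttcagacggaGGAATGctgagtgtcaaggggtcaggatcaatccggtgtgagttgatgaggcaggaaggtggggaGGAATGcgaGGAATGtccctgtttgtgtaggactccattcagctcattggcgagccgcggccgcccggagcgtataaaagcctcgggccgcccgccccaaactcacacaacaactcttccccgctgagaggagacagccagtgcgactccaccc
ANKRD1 promoter, chr10:90921038-90921337, minus strand: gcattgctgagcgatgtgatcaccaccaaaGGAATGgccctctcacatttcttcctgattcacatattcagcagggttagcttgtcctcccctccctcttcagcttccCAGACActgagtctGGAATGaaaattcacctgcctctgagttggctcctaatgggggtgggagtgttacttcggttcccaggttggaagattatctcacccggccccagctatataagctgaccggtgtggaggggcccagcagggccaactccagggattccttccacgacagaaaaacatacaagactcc
TGFBI promoter, chr5:136028738-136029037, plus strand: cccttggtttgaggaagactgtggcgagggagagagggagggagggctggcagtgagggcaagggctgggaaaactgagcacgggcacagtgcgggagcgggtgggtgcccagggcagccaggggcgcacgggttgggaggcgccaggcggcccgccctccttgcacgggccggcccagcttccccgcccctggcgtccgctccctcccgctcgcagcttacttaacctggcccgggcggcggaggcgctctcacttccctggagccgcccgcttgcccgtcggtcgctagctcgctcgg
CTGF held 3 TEAD matches, at 169, 104 and 95 bases before the start. ANKRD1 held TEAD matches at 220 and 128 bases before the start and a SMAD match at 142 (CAGACA). None of these letters stood in the TGFBI window. A match is a description of the letters and not evidence of binding.

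Libraries held 803316 to 1393060 counts with FL, 865997 to 1313573 with FL-mut, 432611 to 603155 with SF-Nte, 315693 to 597414 with SF-mut and 1274474 to 1930245 with EV. Levels are given as CPM, a gene's count relative to the library's total as scaled by the TMM method, and 3 counts in a library, taken as the floor, came to 2.04 CPM in FL replicate 1 and 3.66 CPM in FL replicate 2. ZBTB18 itself averaged 1415 ± 1381 CPM with FL, 3457 ± 2986 with FL-mut, 295.5 ± 144.6 with SF-Nte, 1758 ± 1559 with SF-mut and 6.05 ± 1.53 with EV (SD, n = 3 each). Its log2 fold change was 1.29 ± 0.73 in FL-mut against FL and 2.57 ± 0.77 in SF-mut against SF-Nte (SE, edgeR adjusted p = 0.5 and 0.575). The part of the ZBTB18 level in the comparisons of forms and mutants below was not tested. Of 10 glioma markers, 9 were read and OLIG2 was not analysed here; GFAP reached at most 7.38 CPM and S100B was at 0 in 13 of 15 libraries. The summed level of the 9 glioma markers read ran from 236.8 to 677.3 CPM with FL, 568.5 to 879.8 with FL-mut, 981.2 to 1168 with SF-Nte, 1015 to 1202 with SF-mut and 493.3 to 1039 with EV. Each construct group overlapped EV in this sum, while FL and FL-mut lay below SF-Nte and SF-mut. VIM, CD44 and FABP7 held most of the sum. Its part in the results below was not tested. In bulk RNA, fewer cells that express a gene and less RNA per cell cannot be told apart. Barcode names repeat with a suffix for SF-mut, so how SF-mut was handled and which construct it carries cannot be told apart.

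Of the 10 members, 8 passed the filter on low counts, which kept 6767 genes; AMOTL2 and SMAD7 did not pass. In the test for any difference among the 5 groups, 1 of the 8 tested members, CTGF, passed (edgeR quasi-likelihood test, adjusted p = 0.0469), against 1.12% of all genes tested. TGFBI followed with adjusted p = 0.108, AXL with 0.207 and ANKRD1 with 0.224. The other 4 ranged from 0.463 (AJUBA) to 0.914 (THBS1). CTGF kept this call in 4 of 15 fits that each left out 1 library, with adjusted p from 0.032 without SF-mut replicate 2 to 0.136 without FL replicate 3. The 4 fits were those without FL-mut replicate 1 or 2, SF-mut replicate 2 or EV replicate 1.

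**Figure D1:**
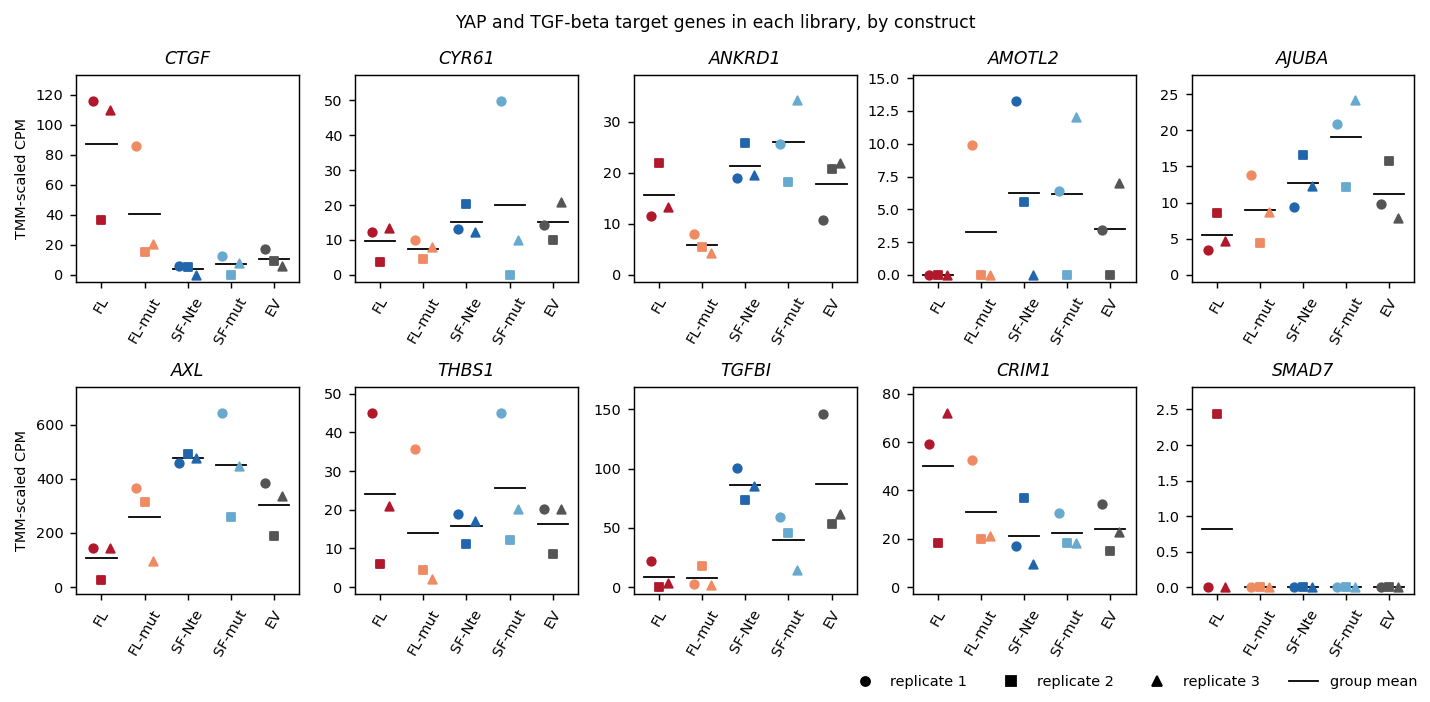
Levels of the 10 members in each of the 15 libraries, in CPM (TMM-scaled) on linear axes that differ between panels, with groups in the order FL, FL-mut, SF-Nte, SF-mut and EV. Points are libraries, with 1 symbol per replicate number, and lines are group means. CTGF is highest in FL, while TGFBI is low in FL and FL-mut.

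CTGF, a secreted matrix protein of the CCN family and the best-known YAP target, was high in FL cells. It stood at 116, 36.6 and 110.2 CPM in the FL libraries and at 86.2, 15.6 and 20.3 CPM in the FL-mut libraries. In the short-form groups it was 5.67, 5.53 and 0 CPM with SF-Nte and 12.8, 0 and 8.05 CPM with SF-mut, and the EV libraries held 17.2, 9.29 and 6.11 CPM. Every FL library lay above every EV library, every SF-Nte library lay below every EV library, and FL-mut overlapped both FL and EV. The SF-Nte values were at or below the floor of 3 counts, which came to 5.67, 5.53 and 7.33 CPM in those libraries. The last floor is above the level of EV replicate 3, so the separation of SF-Nte from EV is not resolved at this depth. The group means were 87.5 ± 44.2 CPM in FL, 40.7 ± 39.5 in FL-mut, 3.74 ± 3.24 in SF-Nte, 6.96 ± 6.48 in SF-mut and 10.9 ± 5.70 in EV (SD, n = 3). In the order of the means (FL, FL-mut, EV, SF-mut, SF-Nte), neighbours all overlapped in range.

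SF-Nte against FL was the one comparison of groups in which a member passed. In SF-Nte cells relative to FL cells, CTGF fell by 4.43 ± 0.98 on the log2 scale (SE; edgeR adjusted p = 0.0403), from 6 counts in SF-Nte and 316 in FL. It was 1 of 8 tested members to pass, where 1.06% of all genes did. Leaving out any 1 of the 6 libraries ended the call: the log2 difference then lay between -4.79 and -3.95 and the adjusted p between 0.0632 (without FL replicate 2) and 0.14 (without SF-Nte replicate 1). The glioma marker VIM rose in the same comparison by 1.75 ± 0.38 on the log2 scale (adjusted p = 0.0362), with 699 to 828 CPM in SF-Nte and 140.3 to 282 CPM in FL. It was the one of 5 tested glioma markers to pass: the log2 fold change was 2.40 for NES, 0.57 for CD44, -0.01 for SOX2 and -0.24 for FABP7 (adjusted p = 0.186, 0.764, 0.996 and 0.929). The 4 too low to be tested, GFAP, S100B, PTPRZ1 and EGFR, averaged 2.46, 0, 2.44 and 4.15 CPM in SF-Nte and 1.31, 1.99, 0.23 and 1.27 CPM in FL. The SF-Nte libraries were also the shallower ones. ZBTB18 itself had a log2 fold change of -2.26 ± 0.76 in SF-Nte against FL (edgeR adjusted p = 0.189). Its level in every SF-Nte library was below that in every FL library. The part of the markers, the depth or the ZBTB18 level in the CTGF result was not tested.

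Against EV, CTGF had a log2 fold change of 2.97 ± 0.82 in FL (unadjusted p = 0.00229, edgeR adjusted p = 0.172) and of 1.86 ± 0.80 in FL-mut (adjusted p = 0.427). Without FL-mut replicate 1, the second of these was 0.70. With SF-Nte it was -1.46 ± 0.99 (adjusted p = 0.801) and with SF-mut -0.52 ± 0.90 (adjusted p = 0.997). These comparisons share the EV libraries. In SF-mut against FL-mut, the same contrast of short and full-length forms on the mutant background, CTGF had a log2 fold change of -2.39 ± 0.89 (adjusted p = 0.379), with every SF-mut library below every FL-mut library. Without FL-mut replicate 1 it was -1.22 (adjusted p = 0.678).

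CYR61, the CCN paralog of CTGF and likewise a secreted YAP target, did not follow it. It stood at 12.3, 3.66 and 13.3 CPM in FL and at 9.91, 4.44 and 7.96 CPM in FL-mut. The short-form libraries held 13.2, 20.3 and 12.2 CPM with SF-Nte and 49.7, 0 and 10.1 CPM with SF-mut, and EV held 14.2, 10.0 and 21.0 CPM. FL-mut lay below EV in all libraries and no other pair compared was apart in range. Its log2 fold change was -0.60 ± 0.85 in FL against EV and -0.99 ± 0.86 in FL-mut against EV (edgeR adjusted p = 0.953 and 0.726). In SF-Nte against FL it was 0.62 ± 0.89 (adjusted p = 0.82), opposite in sign to CTGF.

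Since both CCN transcripts come from one library and have like lengths (2339 and 2290 bases), the share of CTGF in their joint counts needs no scaling between libraries. This measure was chosen after the values were seen and is given as a description. The share was 90.4%, 90.9% and 89.2% in the FL libraries, from 188, 33 and 130 joint counts. It was 89.7%, 77.8% and 71.8% in FL-mut. With SF-Nte it was 30.0%, 21.4% and 0%, from 10, 14 and 5 counts, and with SF-mut it was 20.5% and 44.4% in the 2 libraries with any count. In EV it was 54.7%, 48.2% and 22.6%, from 64, 27 and 31 counts. Every FL and FL-mut library lay above every EV library, although the exact 95% binomial interval of FL-mut replicate 2, 52.4% to 93.6% from 18 counts, reached into the EV range. SF-Nte replicate 3, with 0 of 5 counts, allows a share of up to 52.2% on the same interval. FL replicate 2, whose levels of both genes were the lowest of its group, had the same share as the other FL libraries within these intervals. The intervals cover counting error only.

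**Figure D2:**
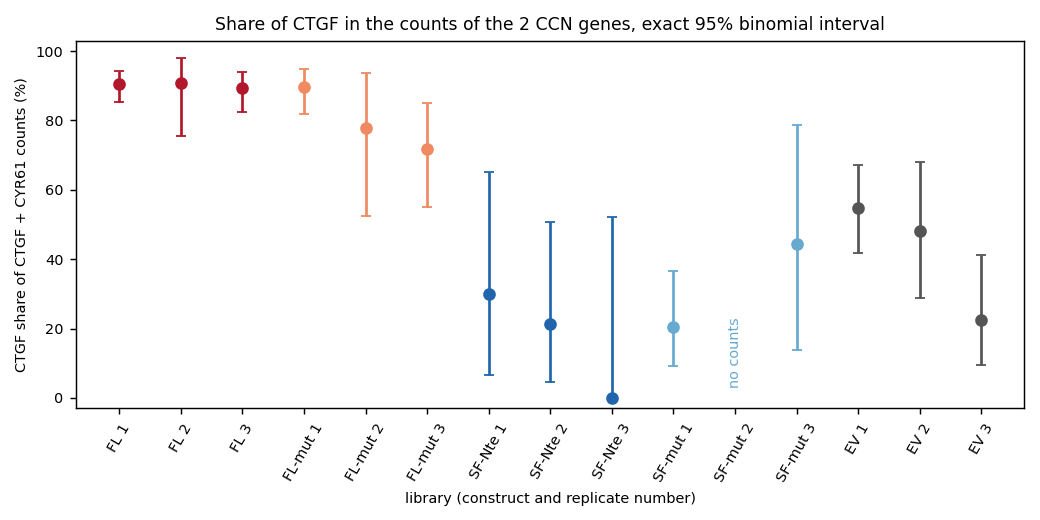
Share of CTGF in the counts of CTGF and CYR61 together, in percent, for each library with any count, with exact 95% binomial intervals, groups running from FL to EV. The FL libraries sit between 89.2% and 90.9%, all above the EV libraries, which reach 54.7%.

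Among the intracellular YAP targets, ANKRD1, a nuclear ankyrin repeat protein also found in the muscle sarcomere, was lowest with FL-mut. It stood at 11.6, 21.97 and 13.3 CPM in FL and 7.93, 5.55 and 4.34 CPM in FL-mut. SF-Nte libraries held 18.9, 25.8 and 19.6 CPM, SF-mut libraries 25.7, 18.1 and 34.2 CPM, and EV libraries 10.8, 20.7 and 21.8 CPM. The FL-mut range lay below that of each other group. The log2 fold change was -1.56 ± 0.54 in FL-mut against EV, -1.37 ± 0.54 in FL-mut against FL and 2.13 ± 0.55 in SF-mut against FL-mut, with edgeR adjusted p of 0.311, 0.352 and 0.181. In FL against EV it was -0.19 ± 0.51 (adjusted p = 0.978). The difference between the mutation's effect on the full-length form and on the short form was -1.66 ± 0.75 for ANKRD1 (unadjusted p = 0.043, adjusted p = 1).

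AJUBA, a LIM domain scaffold that restrains the Hippo kinases LATS, had 3.4, 8.54 and 4.75 CPM in FL and 13.9, 4.44 and 8.69 CPM in FL-mut. It had 9.45, 16.6 and 12.2 CPM with SF-Nte, 20.8, 12.1 and 24.1 CPM with SF-mut, and 9.82, 15.7 and 7.86 CPM in EV. SF-Nte lay above FL in all libraries, with a log2 fold change of 1.21 ± 0.67 (edgeR adjusted p = 0.459). Its annotated region overlaps that of AL132780.3 on the same strand, so reads could be split between them. AMOTL2, an angiomotin that binds YAP and is itself a YAP target, had 0 counts in all 3 FL libraries. It had counts in 1 of 3 libraries with FL-mut (9.91 CPM) and in 2 of 3 with SF-Nte (13.2 and 5.53 CPM), with SF-mut (6.41 and 12.1 CPM) and in EV (3.44 and 6.99 CPM). With the floor of 3 counts over the FL group, it was at least 3.65-fold lower in FL than in EV, from 0 and 15 counts. By the same floor it was at least 7.52-fold higher in SF-Nte than in FL. These bounds rest on pooled counts and leave out the spread between libraries. AMOTL2 was too low to be tested in the main fit, and ranges overlapped at 0.

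AXL, a receptor tyrosine kinase for the ligand GAS6 and a YAP target, stood at 146, 28.1 and 144.4 CPM in FL, 367, 314.2 and 94.8 CPM in FL-mut, and 459, 491 and 476 CPM in SF-Nte. SF-mut libraries held 641, 259.7 and 449 CPM and EV libraries 382, 189 and 335 CPM. FL lay below EV in all libraries, and SF-Nte lay above both FL and EV, with a mean of 475 ± 15.7 CPM in SF-Nte (SD, n = 3). The log2 fold change was -1.5 ± 0.56 in FL against EV (edgeR adjusted p = 0.401), 0.65 ± 0.54 in SF-Nte against EV (adjusted p = 0.859) and 2.16 ± 0.57 in SF-Nte against FL (adjusted p = 0.0983). The last of these missed the threshold at an unadjusted p of 0.00163. FL replicate 2 was the lowest library for AXL and held the most ZBTB18 of its group, 3009 CPM. It was also the shallowest FL library, and the part of either in its AXL level was not tested.

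Of the TGF-beta targets, TGFBI, a secreted matrix protein that binds integrins and collagen, was low with both full-length forms. It stood at 21.8, 0 and 3.80 CPM in FL and 2.97, 17.8 and 2.17 CPM in FL-mut. The short-form libraries held 100.2, 73.8 and 85.5 CPM with SF-Nte and 59.3, 45.3 and 14.1 CPM with SF-mut, and EV held 146, 52.9 and 62.0 CPM. All 6 full-length libraries lay below all EV libraries, while SF-Nte and EV overlapped. The log2 fold change against EV was -3.24 ± 0.94 in FL and -3.55 ± 0.97 in FL-mut (edgeR adjusted p = 0.219 and 0.182), and -0.01 ± 0.84 in SF-Nte (adjusted p = 0.996). It was -5.32 in FL without FL replicate 1 and -5.05 in FL-mut without FL-mut replicate 2 (adjusted p = 0.0518 and 0.104). In SF-Nte against FL it was 3.23 ± 0.95 (adjusted p = 0.129), and 5.30 without FL replicate 1 (adjusted p = 0.0428). The libraries left then held 0 and 4 TGFBI counts with FL and 3 and 3 with FL-mut. These lie near the floor of 3 counts, so the sizes without those libraries are not resolved. SF-mut lay below SF-Nte in all libraries, by a log2 fold change of -1.12 ± 0.88 (adjusted p = 0.743).

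THBS1, a matrix glycoprotein that activates latent TGF-beta and a target of both pathways, showed no such separation. It stood at 44.9, 6.10 and 20.9 CPM in FL, 35.7, 4.44 and 2.17 CPM in FL-mut and 18.9, 11.1 and 17.1 CPM in SF-Nte. SF-mut libraries held 44.9, 12.1 and 20.1 CPM and EV libraries 20.1, 8.58 and 20.1 CPM, and all groups overlapped. Its log2 fold change was 0.58 ± 0.86 in FL against EV, with a 95% interval from -1.33 to 2.48. That interval was made with the 10 residual degrees of freedom, fewer than the edgeR test used, and is thus wider. THBS1 overlaps FSIP1 on the opposite strand and CRIM1 overlaps FEZ2 in the same way, and whether counting used strand is not given in the sources used here. CRIM1, a membrane protein with CCN-like cysteine-rich repeats that binds bone morphogenetic proteins, stood at 59.2, 18.3 and 72.2 CPM in FL and 52.5, 20.0 and 21.0 CPM in FL-mut. It was 17.0, 36.9 and 9.77 CPM with SF-Nte, 30.5, 18.1 and 18.1 CPM with SF-mut and 34.4, 15.01 and 22.7 CPM in EV. All groups overlapped, and its log2 fold change was 1.05 ± 0.60 in FL against EV and -1.22 ± 0.63 in SF-Nte against FL (edgeR adjusted p = 0.785 and 0.427). SMAD7, the inhibitory SMAD and a direct TGF-beta target, had 2 counts in all, both in FL replicate 2, so that no level could be compared at this depth.

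**Figure D3:**
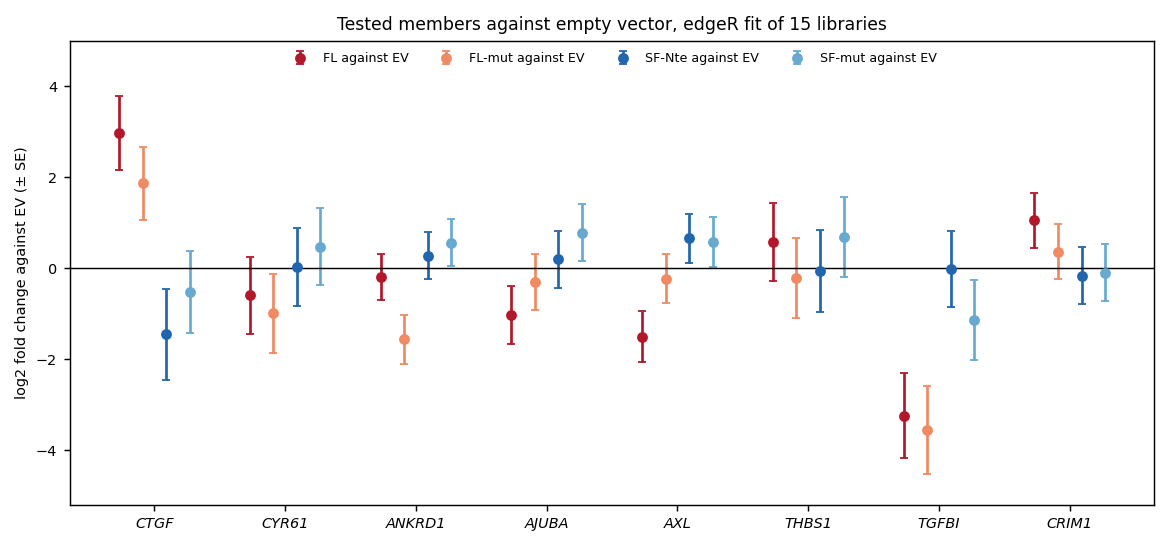
Log2 fold change (vertical axis) of the 8 tested members in each construct group against EV, as points with bars of ± SE from the edgeR fit, the line at 0 marking equal levels. CTGF stands highest with FL (2.97) and TGFBI lowest with FL-mut (-3.55); none of the values shown passed after adjustment over all genes.

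Counted by comparison, 0 of 8 tested members passed in FL against EV, where 0.31% of all genes did, and 3 had an unadjusted p under 0.05, where 7.65% did. Groups did not overlap for 3 of 8 (CTGF higher, AXL and TGFBI lower), against 16.9% of all genes. In FL-mut against EV, 0 of 8 passed (0.192% of all genes) with 3 under 0.05 unadjusted (10.5% of all genes), and 3 of 8 (CYR61, ANKRD1 and TGFBI, all lower) did not overlap, against 17.4%. In SF-Nte against EV, 0 of 8 passed (0.0443% of all genes) with 0 under 0.05 unadjusted (7.21% of all genes), and CTGF (lower) and AXL (higher) did not overlap, against 17.3%. CTGF was at or below the floor of 3 counts in each SF-Nte library. In SF-mut against EV, 0 of 8 passed (0.0591% of all genes) with 0 under 0.05 unadjusted (5.38% of all genes) and 0 of 8 apart, against 10.6%. With DESeq2, the members passing against EV were CTGF and TGFBI with FL, TGFBI with FL-mut, and 0 with either short form. Of the 6767 genes given to it, DESeq2 passed 140 with FL, 145 with FL-mut, 31 with SF-Nte and 26 with SF-mut. These were more than with edgeR in each. Here and below, DESeq2 gave some of the 6767 genes no adjusted p, and those could not pass. CYR61 and AJUBA were among them in FL against EV.

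For the mutations, 0 of 8 passed in FL-mut against FL (0.0887% of all genes), with 2 under 0.05 unadjusted (12.1% of all genes), and ANKRD1 alone was apart, against 18.4% of all genes. In SF-mut against SF-Nte, 0 of 8 passed (0% of all genes), with 0 under 0.05 unadjusted (8.31% of all genes), and TGFBI alone was apart, against 12.4%. DESeq2 passed 0 members in both, where it passed 116 and 4 of all 6767 genes. The difference between the mutation's effects on the full-length and the short form passed in 0 of 8 (0.0296% of all genes) by edgeR and in 0 by DESeq2, with 1, ANKRD1, under 0.05 unadjusted (4.65% of all genes). For the forms, SF-Nte against FL had 3 of 8 under 0.05 unadjusted (13.2% of all genes) and 4 of 8 apart (CTGF lower, and AJUBA, AXL and TGFBI higher), against 24.4% of all genes. SF-mut against FL-mut had 0 of 8 passing (0.163% of all genes) by edgeR. DESeq2 passed 1, ANKRD1, where it passed 117 of all 6767 genes. With edgeR, 3 of 8 were under 0.05 unadjusted there (9.71% of all genes), and CTGF and ANKRD1 were apart, against 13.6%.

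The members did not move as a block. In FL against EV, 3 had a log2 fold change above 0 and 5 below, with a median of -0.39, beside -0.01 for all genes tested. In SF-Nte against FL, 5 were above 0 and 3 below, with a median of 0.55, beside -0.15. The median was 0.01 in SF-Nte against EV and 0.52 in SF-mut against EV, beside -0.13 and -0.02 for all genes tested. Shares near those of the background are no sign of a change particular to the members. The members were chosen with earlier results of these data known, so shares above the background are descriptions only.

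**Figure D4:**
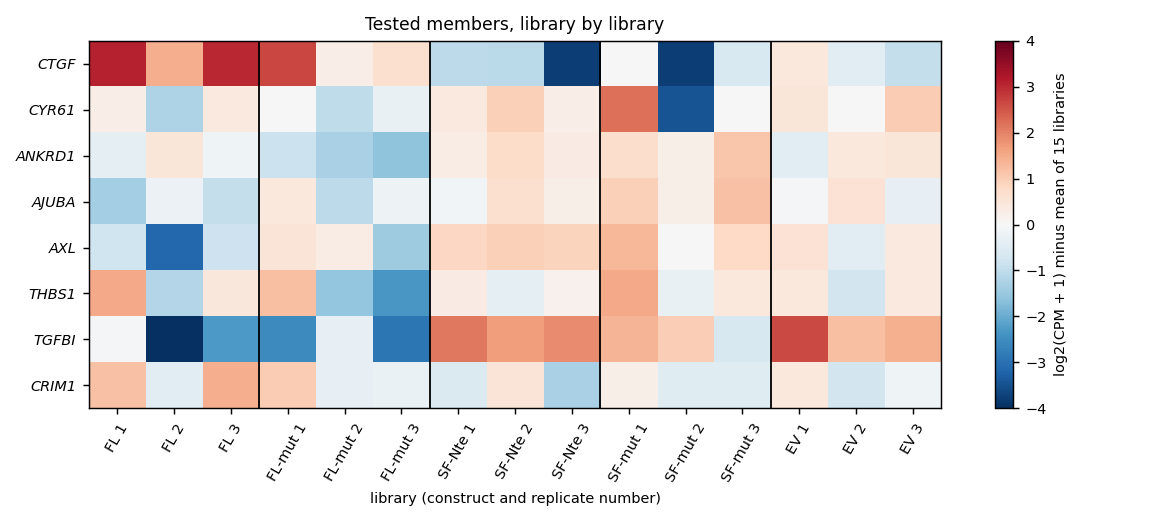
Level of each of the 8 tested members in each library relative to its mean over the 15 libraries, as a difference of log2(CPM + 1), libraries grouped from FL to EV. Red is above and blue below that mean: CTGF is above it in all FL and FL-mut libraries, TGFBI is below it in all FL-mut libraries, and FL replicate 2 is low for AXL and TGFBI.

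Within groups, several members moved together from library to library. FL replicate 2 lay below its group mean for 6 of the 8 tested members, while 51.6% of all genes tested lay above theirs. FL replicate 2 had a median member deviation of -1.13 on the log2(CPM + 1) scale. Without it, the log2 fold change in FL against EV was 3.34 for CTGF, -1.06 for AXL and -2.73 for TGFBI (edgeR adjusted p = 0.297, 0.9 and 0.575). FL-mut replicate 1 lay above for 7 of 8 (51.85% of all genes) and SF-mut replicate 1 for 8 of 8 (55.49%), by medians of 0.71 and 0.70. These libraries were picked from the 15, and others were less one-sided, such as EV replicate 3 with 4 of 8 above (51.03%). Deviations from the group mean correlated over the 15 libraries at r = 0.75 for CTGF and CYR61, whereas their levels correlated at 0.26. For CTGF and CRIM1 the values were 0.72 and 0.77, for AXL and THBS1 0.82 and 0.48, and for AJUBA and TGFBI -0.73 and 0.25. These pairs were those furthest from 0 within groups. Others were near 0, such as ANKRD1 and THBS1 at -0.0016. The correlations are descriptions over libraries that share groups, depth and scaling.

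The 3 genes whose log2(CPM + 1) ran most like that of CTGF over the 15 libraries, among 6766 others, were AFP (r = 0.90), SERPINE2 (0.88) and SLC44A3-AS1 (0.87). AFP, the fetal serum protein, averaged 184 ± 21.2 CPM with FL, 80.9 ± 55.2 with FL-mut, 15.3 ± 2.66 with SF-Nte, 13.8 ± 13.6 with SF-mut and 56.5 ± 30.6 with EV. SERPINE2, a secreted serine protease inhibitor, averaged 58.3 ± 24.7 CPM with FL, 66.9 ± 22.4 with FL-mut, 14.4 ± 13.4 with SF-Nte, 12.3 ± 12.1 with SF-mut and 31.4 ± 16.2 with EV. Reads of the antisense gene SLC44A3-AS1 and its partner cannot be told apart without strand. For TGFBI the 3 were TMEM14C (r = 0.90), NNMT (0.90) and NAE1 (0.87). NNMT, an enzyme that methylates nicotinamide, averaged 8.43 ± 7.30 CPM with FL, 23.0 ± 33.1 with FL-mut, 120.2 ± 15.7 with SF-Nte, 141 ± 25.7 with SF-mut and 101 ± 24.1 with EV.

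Among the other genes of the pathways, 1 of 9 tested members of the Hippo and YAP core, STK3, passed in SF-Nte against FL, where 1.06% of all genes did. In SF-Nte relative to FL, STK3, the kinase MST2 that starts the Hippo cascade, fell by 2.88 ± 0.62 on the log2 scale (edgeR adjusted p = 0.0342). Its levels lay between 2.44 and 5.67 CPM in SF-Nte and between 23.8 and 52.5 CPM in FL, with 6.99 to 15.2 CPM in EV. The SF-Nte group held 7 STK3 counts, at or below the floor of 3 counts in each library. The size of the fall is therefore not resolved at this depth. STK3 passed in 1 of 6 fits without 1 library, the one without FL replicate 3 (adjusted p = 0.0453), and reached 0.175 without FL replicate 2. YAP1 itself ran from 10.9 to 29.5 CPM with FL, 16.7 to 46.6 with FL-mut, 11.1 to 20.8 with SF-Nte, 0 to 12.1 with SF-mut and 4.29 to 16.6 with EV (5-group adjusted p = 0.343). Its log2 fold change was 1.12 ± 0.81 in FL against EV and -2.86 ± 0.97 in SF-mut against FL-mut (adjusted p = 0.854 and 0.31). WWTR1, which encodes the YAP paralog TAZ, and TEAD1 were too low to be tested, at no more than 19.5 and 13.4 CPM in any library.

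Of 5 tested other YAP targets, 2 passed in SF-Nte against FL, in opposite directions, where 1.06% of all genes did. CCDC80, a secreted matrix protein, fell by 2.48 ± 0.53 on the log2 scale (edgeR adjusted p = 0.0342), with 11.1 to 43.5 CPM in SF-Nte and 87.1 to 271 CPM in FL. It passed in 1 of 6 fits without 1 library, the one without FL replicate 1 (adjusted p = 0.032), with up to 0.144 in the others. RBMS3, an RNA-binding protein, rose by 2.60 ± 0.44 (adjusted p = 0.0131), with 206 to 271 CPM in SF-Nte and 31.3 to 45.6 CPM in FL; it missed the threshold without FL replicate 2 (adjusted p = 0.0585). RBMS3 also passed among the 5 groups (adjusted p = 0.0296), in 7 of 15 fits without 1 library: those without FL-mut replicate 1 or 2, any SF-mut replicate, or EV replicate 1 or 3 (adjusted p up to 0.101 in the others). Its EV libraries lay between 72.2 and 153.7 CPM, below SF-Nte and above FL.

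Of 8 tested other TGF-beta targets, 1 passed in SF-Nte against FL, where 1.06% of all genes did. TAGLN, an actin-binding protein of contractile cells, had 0 counts in SF-Nte and 244 in FL, where it stood between 56.0 and 87.8 CPM. With the floor of 3 counts over the SF-Nte group it was at least 36.0-fold lower in SF-Nte than in FL. This bound rests on pooled counts and leaves out the spread between libraries. The edgeR test of equal levels, which does not test that bound, gave an adjusted p of 0.0188. TAGLN passed in 2 of 6 fits without 1 library, those without FL replicate 1 or 3, with adjusted p up to 0.0883 in the others. EV libraries held 12.9 to 46.6 CPM.

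Of the 7 tested genes of the TGF-beta core, 0 passed in any comparison with edgeR, and in the 5-group test 0 had an unadjusted p under 0.05. DESeq2 passed 1 of them, TGIF1, in SF-Nte against FL, where it passed 296 of all 6767 genes. SMAD2, a receptor-activated SMAD, ran from 33.3 to 44.6 CPM with FL, 23.8 to 30.0 with FL-mut, 24.4 to 28.4 with SF-Nte, 10.1 to 17.6 with SF-mut and 20.0 to 29.7 with EV (5-group adjusted p = 0.33). SKIL, a repressor of SMADs, averaged 66.7 ± 13.6 CPM in SF-Nte and 21.7 ± 5.83 in EV, with a log2 fold change of 1.62 ± 0.58 (adjusted p = 0.6). The ligand TGFB2 reached at most 17.7 CPM and the receptor TGFBR1 at most 20.0 CPM in any library. TGFB1, TGFBR2, SMAD3 and SMAD4 were not tested and reached 3.33, 8.05, 6.11 and 9.45 CPM. Of the 4 tested paralogs and partners, 0 passed in any comparison with edgeR or DESeq2, and 0 had an unadjusted p under 0.05 in the 5-group test. CD47, a receptor of THBS1, had a 5-group adjusted p of 0.51 and WTIP, a relative of AJUBA, one of 0.615.

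In the other comparisons of groups, 0 genes of the 5 lists passed with edgeR. In FL against EV an unadjusted p under 0.05 was found for 1 of 9 Hippo and YAP core genes, 3 of 5 other YAP targets, 0 of 7 TGF-beta core genes, 3 of 8 other TGF-beta targets and 1 of 4 paralogs and partners, where 7.65% of all genes had one. DESeq2 passed STK3, MYOF, CCDC80, RBMS3 and PMEPA1, among others of the lists, in that comparison and TAGLN in SF-Nte against EV. Of all 6767 genes it passed 140 in the former and 31 in the latter. The lists were chosen with earlier results of these data known, so their shares beside those of all genes are descriptions only.

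**Figure D5:**
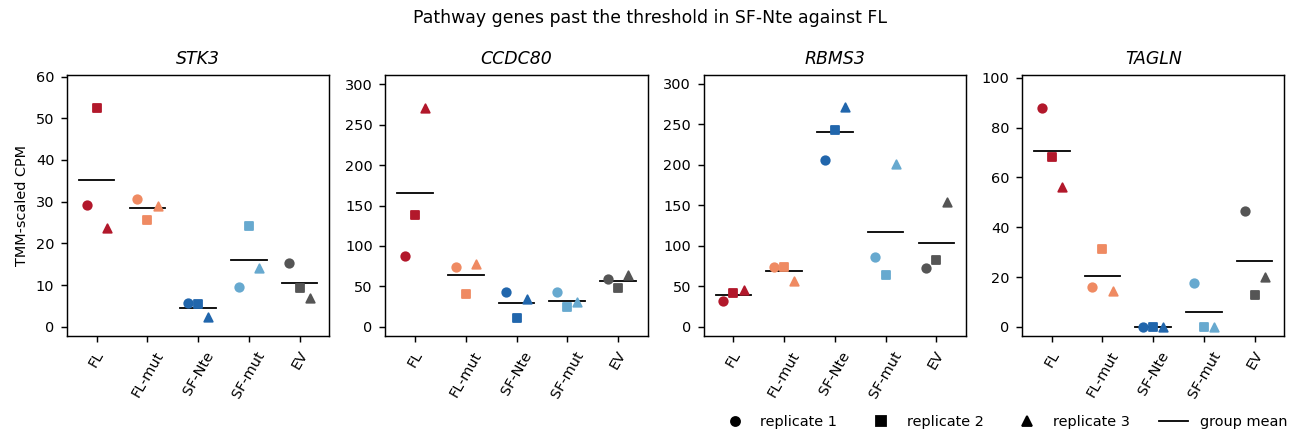
Levels in CPM (TMM-scaled) by library of the 4 pathway genes that passed in SF-Nte against FL, with lines at the group means and groups running from FL to EV. RBMS3 is highest in SF-Nte (206 to 271 CPM), while STK3, CCDC80 and TAGLN are highest in FL.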

How the data were processed

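Oxford Nanopore cDNA of polyadenylated RNA from 15 libraries, prepared with PCR barcoding per the labels' protocols, was analysed from the deposited table of whole-number counts per gene symbol, which the authors did not normalise. The submitters' processing notes name GRCh38; aligner, counter, strand setting and annotation are not stated in the sources used here. The reads carry no molecular identifiers, and PCR can alter a gene's share. Groups and replicate numbers came from sample titles.

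Genes passing filterByExpr (minimum count 10, total 15) were fitted with edgeR 4.0.16 in R 4.3.3: TMM scaling, 1 coefficient per group, 15 libraries, robust quasi-likelihood, 10 residual degrees of freedom, and Benjamini-Hochberg adjustment over 6767 genes at 0.05. The standard error is the log2 fold change divided by the square root of F. DESeq2 1.42.0, other filters, scalings and sets of libraries were alternatives. The fit was tested on simulated data. Positions and lengths came from GENCODE 29, which matched 97.3% of symbols. Shares have exact binomial intervals from scipy 1.17.1. Replicates differed by more than sampling noise (chi-square per gene from 3.82 to 29.1).

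Named beside the members were ZBTB18; YAP1, WWTR1, TEAD1, TGFB1, TGFB2, TGFBR1, TGFBR2, SMAD2, SMAD3 and SMAD4; genes of 5 pathway lists that passed, with the 2 of lowest 5-group p per list, of which 1 gene is not reported here; and, for the 2 members of lowest p, the 3 genes of highest r. The members and lists were chosen with earlier results of these data known. Markers of other cell types reached summed levels of at most 30.2 CPM (immune), 20.8 (epithelial), 21.8 (endothelial) and 157 (fibroblast, led by THY1).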

Additional observations from a re-analysis of the deposited data

How the results depend on the processing

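Of the choices tried, the tool and the low-count filter changed member calls most. DESeq2 passed 2 members in FL against EV (CTGF, TGFBI), 1 in FL-mut against EV (TGFBI), 3 in SF-Nte against FL (AXL, CTGF, TGFBI), 1 in SF-mut against FL-mut (ANKRD1) and 4 among the 5 groups. With no low-count filter, 18485 genes were tested, AMOTL2 and SMAD7 among them. In that setting edgeR passed 3 in FL against EV, 1 in FL-mut against EV, 3 in SF-Nte against FL and 3 among the 5 groups. The cause was not tested. Leaving out 1 library gave 0 to 1 members in SF-Nte against FL, where the 1 was TGFBI without FL replicate 1, and 0 to 1 among the 5 groups. The added fit without the SF-mut libraries, chosen after seeing the data, changed no member count in its 5 comparisons. Of the pathway genes, STK3 and CCDC80 missed the threshold when only SF-Nte and FL were fitted (adjusted p = 0.0578 each).

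Over all genes, DESeq2 passed 140 in FL against EV, 145 in FL-mut against EV, 31 in SF-Nte against EV, 26 in SF-mut against EV, 116 in FL-mut against FL, 4 in SF-mut against SF-Nte, 296 in SF-Nte against FL, 117 in SF-mut against FL-mut, 8 in the interaction and 652 among the 5 groups. The main edgeR counts were 21, 13, 3, 4, 6, 0, 72, 11, 2 and 76 in the same order. Both tools were given 6767 genes, but DESeq2 gave some of them no adjusted p. Without a filter, with 18485 genes tested, the edgeR counts were 202, 219, 121, 81, 348, 193, 301, 134, 49 and 1059. With only the groups compared in the fit, 12, 3, 1, 2, 0, 0, 99, 0 and 0 passed in the first 9. The stricter filter, which kept 5769 genes, passed 119 among the 5 groups, and without the SF-mut libraries 0 passed in SF-Nte against EV. DESeq2 size factors in edgeR passed 1 in SF-Nte against EV. In FL-mut against EV, those size factors gave 6 higher and 4 lower genes, beside 6 and 7 with TMM. Leaving out 1 library gave 6 to 23 genes in FL against EV, 1 to 28 in FL-mut against EV, 0 to 4 in SF-Nte against EV, 1 to 5 in SF-mut against EV, 2 to 9 in FL-mut against FL, 11 to 65 in SF-Nte against FL, 0 to 12 in SF-mut against FL-mut, 0 to 1 in the interaction and 35 to 152 among the 5 groups.

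Deviations of same-numbered libraries did not reach the limit of r above 0.1 in all 3 pairs of any comparison. The numbers were therefore not taken as pairing. In FL against EV, r was 0.25, 0.09 and 0.24, and in SF-mut against FL-mut it was 0.31, 0.42 and 0.065. With the replicate number as a block, 1 member, CTGF, passed in SF-Nte against FL and among the 5 groups and 0 elsewhere, and 25 genes passed in FL against EV, 81 in SF-Nte against FL, 93 among the 5 groups and 5 in SF-Nte against EV. The block turned the log2 fold change of TGFBI in SF-Nte against EV to 0.14 and, in SF-mut against SF-Nte, that of CYR61 to -0.054 and of CRIM1 to -0.078. The stricter filter turned TGFBI in SF-Nte against EV to 0.022, and no filter turned CYR61 there to -0.11.

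Log2 fold changes that changed sign when 1 library was left out had these ranges, and none of them had passed. In FL against EV, THBS1 ran from -0.25 to 1.01. In FL-mut against EV, AJUBA ran from -0.73 to 0.024, AXL from -0.57 to 0.17, THBS1 from -2.30 to 0.31 and CRIM1 from -0.23 to 0.72. In SF-Nte against EV, CYR61 ran from -0.25 to 0.33, AJUBA from -0.057 to 0.52, THBS1 from -0.36 to 0.13, TGFBI from -0.27 to 0.59 and CRIM1 from -0.85 to 0.19. In SF-mut against EV, CYR61 ran from -1.47 to 0.998, THBS1 from -0.054 to 0.99 and CRIM1 from -0.48 to 0.26. In FL-mut against FL, THBS1 ran from -2.88 to 0.032 and TGFBI from -1.81 to 1.77. In SF-mut against SF-Nte, CYR61 ran from -1.49 to 0.97, ANKRD1 from -0.0055 to 0.45, AXL from -0.48 to 0.18 and CRIM1 from -0.31 to 0.70. In SF-Nte against FL, THBS1 ran from -1.07 to 0.19. In SF-mut against FL-mut, CYR61 ran from -0.44 to 2.0 and CRIM1 from -0.81 to 0.13. In the interaction, CYR61 ran from -1.37 to 1.07, AJUBA from -0.30 to 0.55 and TGFBI from -0.68 to 2.89. At this depth, AMOTL2 and SMAD7 were too low to be tested in the main fit.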
